A study of Mus musculus with 16 samples.

Results

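Genes for the granule proteins and the S100 proteins of neutrophils were followed through RNA sequencing libraries of macrophages and microglia sorted from mouse brain. The set held 10 genes, chosen by name from the 18580 genes listed in any of 16 libraries: the early granule genes Mpo and Elane, the late granule genes Camp, Ngp, Ltf, Lcn2 and Mmp8, and the mature neutrophil genes S100a8, S100a9 and Retnlg. All 10 were found. Every member had a higher fitted level in the sorted macrophages than in microglia. In macrophages the members together took between 1.01% and 6.03% of the counts of a library, and in microglia between 0.041% and 0.142%.

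Neutrophils make their granules in order while they mature in the bone marrow. Azurophilic granules, formed in promyelocytes, carry myeloperoxidase (Mpo) and neutrophil elastase (Elane). Specific and gelatinase granules follow, with cathelicidin (Camp), neutrophilic granule protein (Ngp), lactoferrin (Ltf), neutrophil gelatinase-associated lipocalin (Lcn2) and collagenase of neutrophils (Mmp8). Mature cells fill their cytoplasm with calprotectin, the complex of S100a8 and S100a9, and transcribe Retnlg, which encodes a resistin-like protein. A circulating neutrophil is known to hold much S100a8 RNA and little Mpo RNA, since the granule proteins are made early and stored.

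The members lie on 6 chromosomes of the mouse genome (GRCm38, equal to mm10). S100a8 (chr3:90669071-90670034, plus strand) and S100a9 (chr3:90692630-90695721, minus strand) are neighbours, separated by 22595 bases. Camp (chr9:109847377-109849456), Ngp (chr9:110419808-110423012) and Ltf (chr9:111019292-111042766) span 1195390 bases of chromosome 9, which also holds Mmp8 (chr9:7558429-7568486). Mpo lies at chr11:87793784-87804412, Elane at chr10:79886312-79888216, Lcn2 at chr2:32384637-32387739 and Retnlg at chr16:48872608-48874498.

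Granule genes are known targets of C/EBP factors, and PU.1 acts throughout the myeloid lineage, so the bases upstream of each start were searched for letters of both. The search covered the 250 bases before the RefSeq start of the gene, on both strands, for TTGCNNAA (C/EBP) and for GAGGAA (PU.1). Across 32851 promoters of the same length, 9.56% held the C/EBP letters and 23.3% held the PU.1 letters. Among the members, 6 held the C/EBP letters (Ngp, Ltf, Lcn2, Mmp8, S100a9 and Retnlg) and 6 the PU.1 letters (Mpo, Elane, Ltf, Lcn2, Mmp8 and S100a8). Camp held neither in this window. The sequences below are those of the early pair, of the neighbouring late genes Ngp and Ltf and of the calprotectin genes, since the results turn on how these groups differ in level. Each runs 5′ to 3′ toward the start, with matches to either motif in capitals.
Mpo (chr11:87793534-87793783, plus strand): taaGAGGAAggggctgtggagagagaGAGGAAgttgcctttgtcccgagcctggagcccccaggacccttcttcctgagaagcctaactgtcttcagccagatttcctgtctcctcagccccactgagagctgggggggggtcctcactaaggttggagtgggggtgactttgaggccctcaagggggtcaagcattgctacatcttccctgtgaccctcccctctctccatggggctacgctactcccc
Elane (chr10:79886062-79886311, plus strand): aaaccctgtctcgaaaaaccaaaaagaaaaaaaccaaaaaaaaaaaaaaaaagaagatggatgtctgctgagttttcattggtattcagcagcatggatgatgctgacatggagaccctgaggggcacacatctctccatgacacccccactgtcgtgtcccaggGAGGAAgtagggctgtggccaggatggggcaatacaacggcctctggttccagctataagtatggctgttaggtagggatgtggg
Ngp (chr9:110419558-110419807, plus strand): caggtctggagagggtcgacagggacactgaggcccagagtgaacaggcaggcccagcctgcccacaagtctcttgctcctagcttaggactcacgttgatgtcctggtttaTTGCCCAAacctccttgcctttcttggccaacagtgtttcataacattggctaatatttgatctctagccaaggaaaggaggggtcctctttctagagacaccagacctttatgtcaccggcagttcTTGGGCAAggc
Ltf (chr9:111019042-111019291, plus strand): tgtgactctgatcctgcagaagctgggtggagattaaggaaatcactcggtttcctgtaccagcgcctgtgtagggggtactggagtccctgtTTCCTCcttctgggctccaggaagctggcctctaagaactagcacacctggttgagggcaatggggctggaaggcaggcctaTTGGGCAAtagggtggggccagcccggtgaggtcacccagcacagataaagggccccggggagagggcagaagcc
S100a8 (chr3:90668821-90669070, plus strand): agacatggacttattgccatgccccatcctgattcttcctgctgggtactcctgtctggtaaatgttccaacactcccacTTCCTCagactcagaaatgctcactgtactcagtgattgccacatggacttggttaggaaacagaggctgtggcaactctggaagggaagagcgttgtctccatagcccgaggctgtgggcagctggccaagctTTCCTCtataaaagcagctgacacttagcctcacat
S100a9 (chr3:90695722-90695971, minus strand): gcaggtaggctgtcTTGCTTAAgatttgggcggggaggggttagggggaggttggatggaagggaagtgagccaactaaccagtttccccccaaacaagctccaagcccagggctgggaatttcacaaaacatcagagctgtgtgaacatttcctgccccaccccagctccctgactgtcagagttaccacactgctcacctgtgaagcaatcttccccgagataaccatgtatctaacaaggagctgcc
Ngp held the C/EBP letters at 138 and 11 bases before its start, and Ltf at 75 bases. Mpo held the PU.1 letters at 247 and 224 bases and Elane at 85 bases, and neither held the C/EBP letters. A match of letters is a description of the window and does not show that a factor binds there.

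Mice were WT C57BL/6N littermates or CD163KO (CD163tm1.1(KOMP)Vlcg), females and males, 12 weeks old at surgery. CD163 is the haemoglobin scavenger receptor of macrophages. Each mouse received murine α-synuclein in both striata, either as monomer (MONO) or as pre-formed fibrils (PFF). MONO was the control, chosen for its reported lack of seeding. In its histology the study saw more CD68 and GFAP after MONO, and it names MONO as control a limitation. No library of mice without α-synuclein was available, so lower with PFF and higher with MONO cannot be told apart. Mice were killed 2 months later and perfused with cold phosphate-buffered saline. Groups held 7 WT mice or 5 CD163KO mice, except male CD163KO MONO with 4, and 1 table was available for each combination of population, sex, genotype and treatment. Macrophages were sorted as CD45 high, CD11b+ (10000 to 30000 cells) and microglia as CD45 low to intermediate, CD11b+ (200000 to 500000 cells). By the methods of the study the macrophage gate takes in neutrophils and NK cells beside infiltrated macrophages and those of the brain borders. Triplicates were sequenced, and whether a table pools them is not stated. P-values therefore rest on the spread between combinations, after terms for sex, genotype and treatment.

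The libraries held between 8648751 and 21433841 estimated counts. The libraries of male WT PFF and male CD163KO MONO stood apart. In macrophages the median correlation of log2(FPKM + 1) across genes with the other libraries was 0.721 and 0.785 for these, against at least 0.921 for the rest. In microglia their correlations (0.900 and 0.921) lay within those of the others (0.896 to 0.930), but their TMM factors, which scale libraries to a common level of most genes, were 0.281 and 0.55 against at least 1.34. The study left out the male CD163KO MONO group for inconsistent technical replicates, so tests here use the other 7 libraries of each population. Values of that group are given as a description. The study also corrected a batch effect and removed outlier samples of both populations. Whether the libraries used here include those samples is not stated. Cd163 had 748 to 5275 counts in WT and 0 or 1 in CD163KO macrophages. In microglia it did not separate the genotypes (0 to 101 counts in WT, 5 to 23 in CD163KO). The library labelled microglia of female CD163KO MONO held 799 counts summed over Uty, Kdm5d, Eif2s3y and Ddx3y, which lie on the Y chromosome, against at most 2 in the other female libraries.

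In macrophages S100a8 was among the most abundant transcripts of every library, at rank 1 to 10 by FPKM (fragments scaled to transcript length and to library size). Its FPKM ranged from 14560 to 95360 over the 8 libraries, with a median of 61854. S100a9, its partner in calprotectin, ranged from 4741 to 20638 with a median of 14802. Retnlg ranged from 523.8 to 4724 with a median of 3570. The mature genes together made up 83.0% to 93.1% of the summed FPKM of the members.

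The late granule genes followed at 6.91% to 16.4% of the summed FPKM. Ngp, a cathelicidin relative, was the highest of them, between 1588 and 12126 FPKM with a median of 5120. Camp lay between 492.2 and 5311, with a median of 3003. Ltf, the iron-binding lactoferrin, had a median of 522.5 (112.7 to 1800). Lcn2, which binds bacterial siderophores, had a median of 292.0 (75.2 to 508.2), and the collagenase Mmp8 had a median of 184.2 (25.3 to 740.7). The ranges of Ltf, Lcn2 and Mmp8 overlapped, so their order differs between libraries.

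The early granule genes had the lowest medians. Elane, a serine protease, had a median FPKM of 56.5 (12.5 to 335.3), and Mpo, which makes hypochlorous acid, had a median of 35.2 (3.40 to 255.8). The range of Elane overlapped those of Ltf, Lcn2 and Mmp8, and in male WT MONO it was above Mmp8 (335.3 against 171.1). Together they never exceeded 0.550% of the summed FPKM of the members. The order mature, late, early held for the mean log2(FPKM + 1) of the groups in all 8 macrophage libraries. The early genes varied most. Over the 7 libraries tested, the highest FPKM of Mpo was 38.2 times its lowest, and that of Elane 26.7 times. The same ratio was 26.5 for Mmp8, 11.2 for Ltf, 10.8 for Camp and 9.02 for Retnlg, against 6.55 for S100a8 and 4.35 for S100a9. The order of the other members turned with the scaling. After division by the TMM factor the ratio was 19.9 for Elane and 14.1 for Mpo, still the highest, but 6.32 for Mmp8, 5.25 for Camp and 4.93 for Retnlg, below the 7.00 of S100a8.

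**Figure D1:**
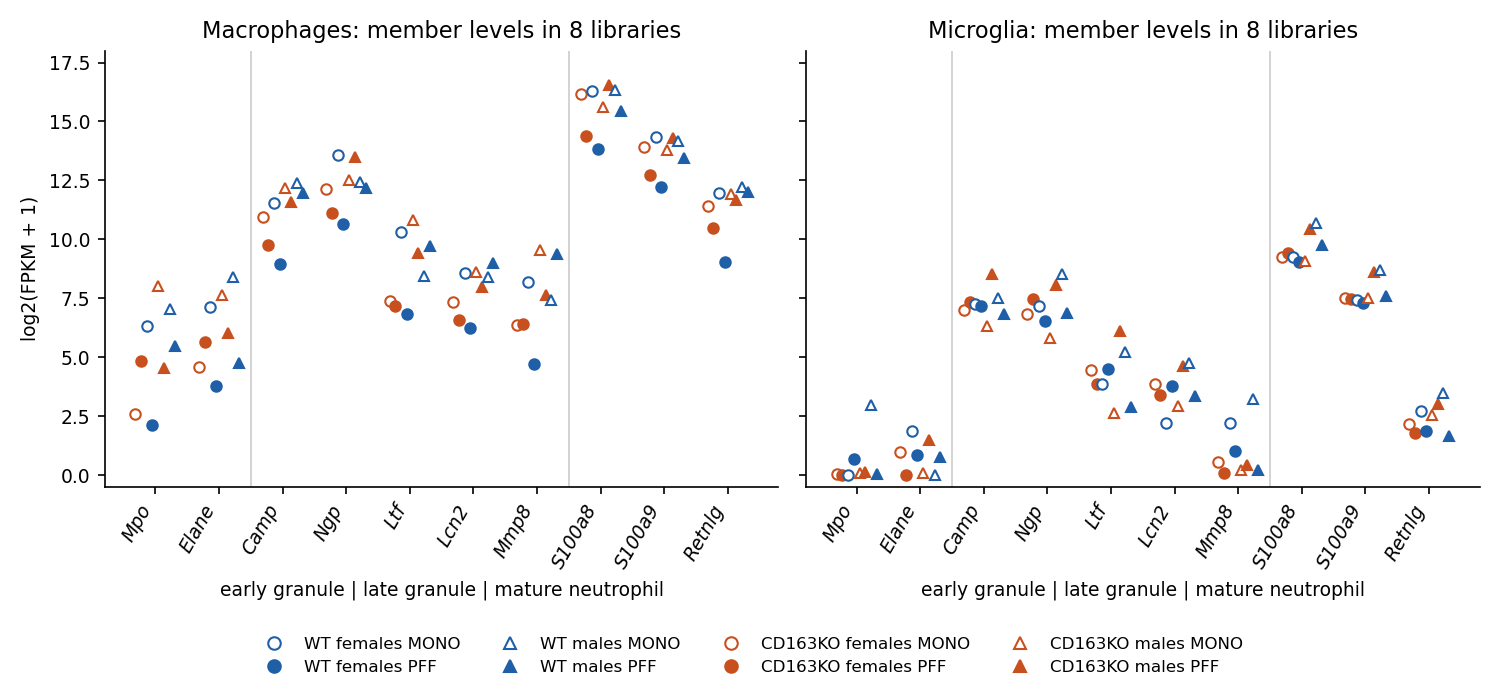
Level of each member as log2(FPKM + 1) in the 8 macrophage libraries (left) and the 8 microglia libraries (right). Each point is 1 library, colour gives the genotype, shape the sex and fill the treatment. S100a8 lies highest in both populations, and Mpo and Elane have the lowest medians in macrophages, with most microglia libraries near 0.

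Microglia held the same mature and late genes at much lower levels. S100a8 ranged from 517.9 to 1669 FPKM with a median of 646.2, S100a9 from 158.2 to 412.4, Camp from 79.5 to 371.5 and Ngp from 54.7 to 367.3. For each of these genes the highest microglia library was below the lowest macrophage library. Ltf (5.14 to 67.7) and Lcn2 (3.63 to 25.7) were lower still. Retnlg did not pass 10.1 FPKM in any microglia library, although it rivalled Camp in macrophages. Mmp8 lay between 0.050 and 8.25 FPKM. Mpo was listed at 0 in 2 microglia libraries and at most at 0.620 in the others, with the exception of male WT MONO (6.76 FPKM, 147 counts). Elane was listed at 0 in 2 libraries, that one included, and reached at most 2.67 FPKM.

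Every member was higher in macrophages than in microglia. Among all 12304 genes tested 13.2% were called higher in macrophages, with edgeR's quasi-likelihood test and Benjamini-Hochberg adjusted p under 0.05 over 7 pairs of libraries, and of the members 10 of 10 were called. Mpo and Elane reached a CPM of 1 in only 2 microglia libraries each and so entered this fit through the macrophage libraries where they are high. Their differences are therefore a description, and 8 of the 8 members that pass the filter within microglia were called. The split of all calls turned with the scaling, from 1629 higher and 959 lower with TMM factors to 587 higher and 5640 lower with library totals, while all 10 members stayed called as higher. The median log2 fold change was 7.32 for the members and -0.31 for all genes tested, against 5.83 and -1.95 with library totals, and the members' median was 4.89 with limma on log2(FPKM + 1), so the folds that follow hold for TMM factors. Retnlg differed most, by 10.62 ± 0.45 (SE; edgeR adjusted p = 4.69e-07), which is 1570-fold. Mmp8 followed at 9.05 ± 0.92 (edgeR adjusted p = 5.79e-05), and the early genes had fitted values of 8.79 ± 1.16 (Mpo) and 7.51 ± 1.08 (Elane). S100a8 differed by 7.37 ± 0.88 and S100a9 by 7.27 ± 0.69, that is 166-fold and 154-fold.

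The smallest differences were those of the other late granule genes. Ngp differed by 6.32 ± 0.71, Lcn2 by 5.45 ± 0.47, Ltf by 5.45 ± 0.46 and Camp by 5.04 ± 0.43 (32.8-fold; edgeR adjusted p = 1.69e-05). In RNA of sorted populations fewer cells of a type and less RNA per cell cannot be told apart. The marker genes of microglia were lower in macrophages for 8 of 8, and those of border-associated macrophages higher for 7 of 8 (6 with library totals). Those of monocytes were higher for 6 of 7 and of T and NK cells for 4 of 6 tested. Within microglia only 4 of 7 monocyte genes passed the filter and the T and NK genes did not, so their counts are a description. All markers of microglia and of border-associated macrophages passed it, so cell types besides neutrophils differed between the populations.

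**Figure D2:**
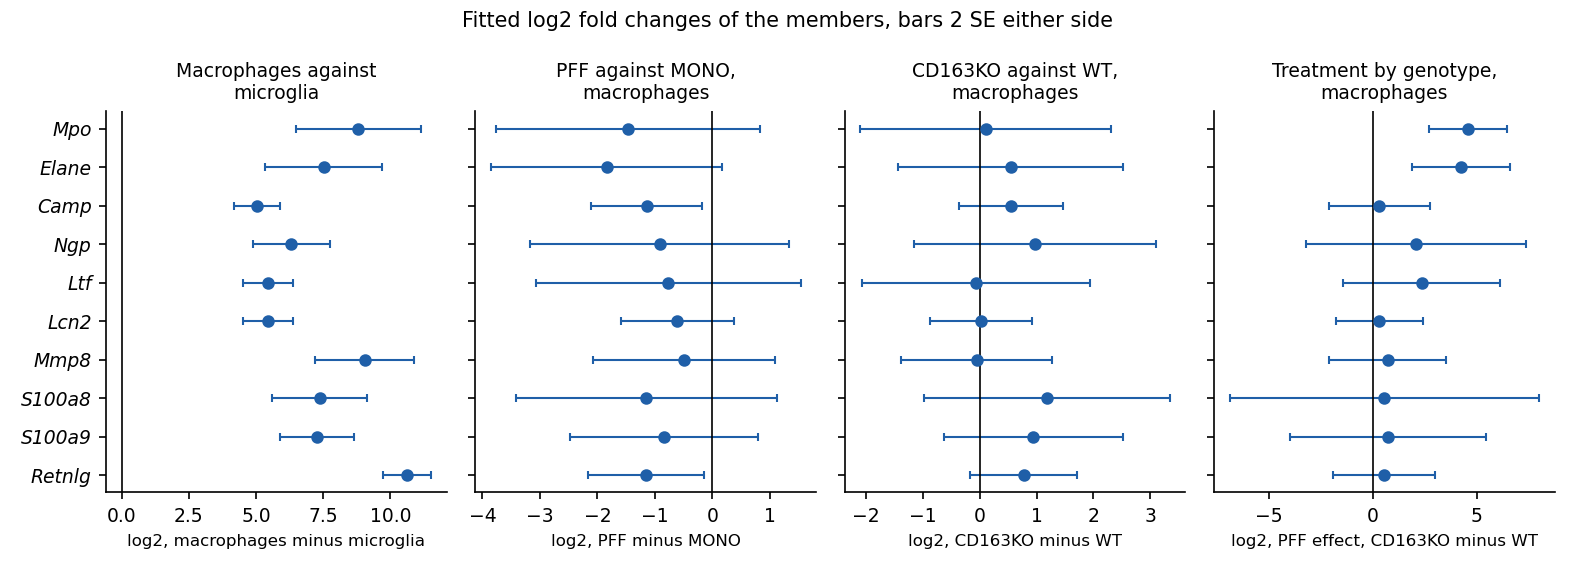
Fitted log2 fold change of each member, with bars of 2 SE either side, for macrophages against microglia (14 libraries) and, within macrophages (7 libraries), for PFF against MONO, CD163KO against WT and the treatment by genotype term. All members lie above 5 in the first panel, while most bars of the other panels cross 0, those of Mpo and Elane in the last panel and of Camp and Retnlg for PFF against MONO excepted.

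The mix of members also differed between the populations. Relative levels within a library need no scaling between libraries, so each member was expressed per 100 FPKM of S100a8 in the same library, as a description over the 7 libraries of each population. S100a9 was at 21.0 to 32.6 in macrophages and at 22.4 to 30.6 in microglia, nearly the same. Camp was at 2.68 to 8.83 in macrophages but at 10.9 to 27.9 in microglia, without overlap. Retnlg went the other way, with 3.41 to 9.24 in macrophages and 0.245 to 0.936 in microglia, again without overlap. The calprotectin genes thus kept their ratio while the antimicrobial Camp stood higher and the resistin-like Retnlg lower beside them in microglia. This follows the fitted differences (5.04 for Camp, 7.37 for S100a8 and 10.62 for Retnlg) and is not a separate result. How many of all genes separate from S100a8 in this way was not counted.

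Ltf, Lcn2 and Ngp stood higher relative to S100a8 in microglia as well, with ranges that overlapped. Their medians were 3.08, 3.42 and 1.79 times those in macrophages. The median of Mmp8 was 0.362 times that in macrophages. The late genes as a group made up 16.8% to 30.0% of the summed FPKM of the members in microglia, above the 16.4% reached at most in macrophages.

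**Figure D3:**
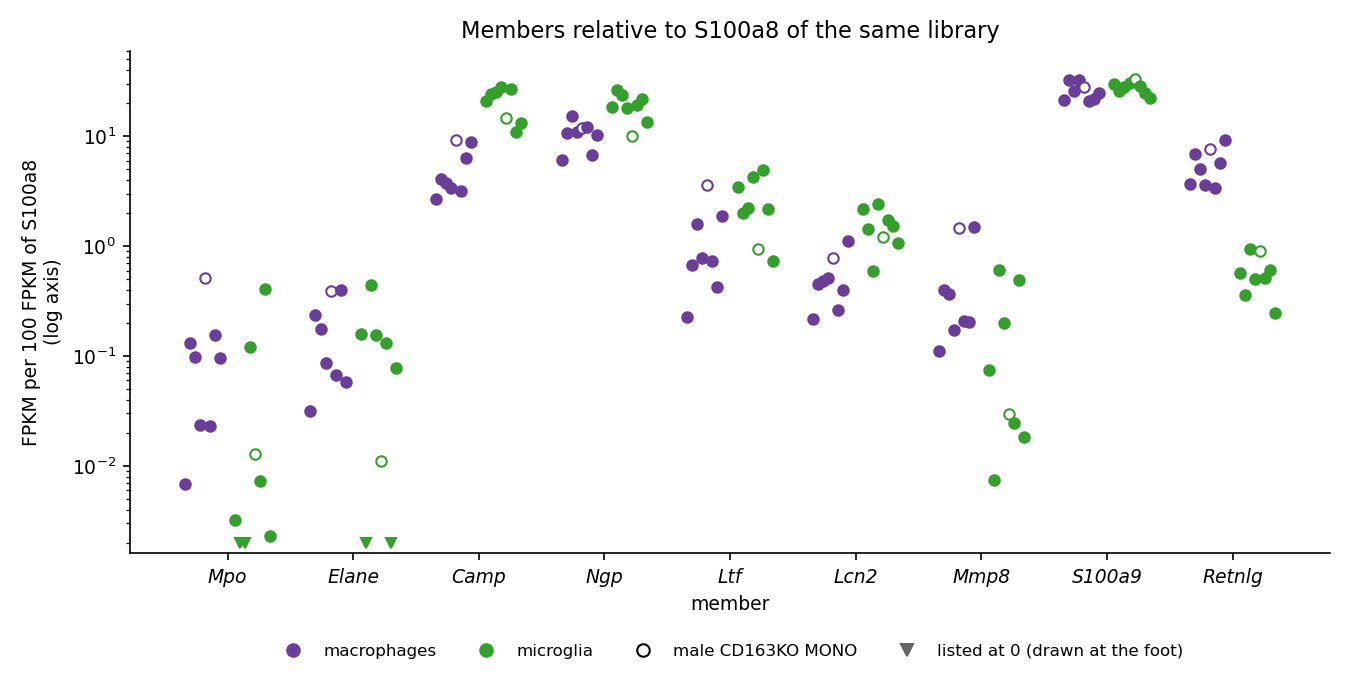
FPKM of each member per 100 FPKM of S100a8 in the same library, on a log axis, for macrophages and microglia. Each point is 1 library, open points are the male CD163KO MONO libraries, and triangles mark libraries where the member was listed at 0. The populations separate for Camp (higher in microglia) and Retnlg (lower in microglia) and coincide for S100a9.

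Other genes of the neutrophil lineage, from lists written beside the members, went with them. All 10 other late granule genes tested were higher in macrophages (8 of them called with library totals), led by Pglyrp1 (peptidoglycan recognition protein, log2 fold change 6.70 ± 0.49), Mmp9 (gelatinase, 8.39 ± 0.70), Hp (haptoglobin, 8.04 ± 0.80) and Cd177 (a neutrophil surface protein, 6.15 ± 0.74). Of the other mature neutrophil genes 9 of 10 were higher (7 with library totals), led by Trem1, an activating receptor (11.58 ± 0.84), and Csf3r, the G-CSF receptor, was lower (-1.18 ± 0.22). Csf3r lay between 68.3 and 228.2 FPKM in microglia, so it does not mark neutrophils in these libraries. Of the other early granule genes, Ctsg (cathepsin G, 10.41 ± 1.09) and Prtn3 (proteinase 3, 9.77 ± 1.35) were higher, and Ms4a3 and Prss57 were not called by edgeR. DESeq2 called Ms4a3 higher (7.49). These early genes and Trem1, like Mpo and Elane, did not pass the filter within microglia. Of the other late granule genes 8 of 10 passed it, and of the other mature neutrophil genes 5 of 10. Calls of genes that did not pass it are a description.

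Among 6 tested factors of granulopoiesis, Cebpe, which drives the late granule programme, was higher in macrophages (6.31 ± 1.37), as was Cebpb (6.44 ± 1.20). Spi1, which encodes PU.1, was called higher with TMM factors (1.35 ± 0.27) but not with library totals, where it was at -0.07. Cebpa was lower (-1.76 ± 0.28), and Cebpd and Runx1 were not called by edgeR with TMM factors. DESeq2 called Cebpd higher (1.31), and Runx1 was called lower with library totals (-2.15) and by limma (-1.46). Gfi1 was listed at 0 in most libraries. Of the 5 tested receptors of the encoded proteins, the formyl peptide receptors Fpr1 (10.01 ± 1.12) and Fpr2 (6.94 ± 1.11), the latter a receptor of cathelicidin, were higher in macrophages, again without passing the filter within microglia. Tlr4 and Ager, receptors of calprotectin, and the lipocalin receptor Slc22a17 were not called by edgeR with TMM factors. Slc22a17 was called lower with library totals (-2.61), by DESeq2 (-1.09) and by limma (-2.11), and Ager by limma (-0.96).

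PFF was then compared with MONO, the control for α-synuclein pathology, in macrophages. All 10 members had lower fitted levels with PFF, and none passed the test. S100a8 was at 79279, 73473 and 83245 FPKM in the MONO libraries of WT females, CD163KO females and WT males. It was at 14560, 21091, 45219 and 95360 with PFF in WT females, CD163KO females, WT males and CD163KO males. Only the CD163KO male PFF library was above the MONO libraries, and the other PFF libraries were below all of them. Camp was at 2955, 1968 and 5311 with MONO and at 492.2, 867.8, 3991 and 3051 with PFF, in the same order. Retnlg was at 3966, 2691 and 4724 with MONO and at 523.8, 1446, 4177 and 3255 with PFF. For both genes the PFF libraries of females were the lowest on this scale and after division by the TMM factor. Those of males lay within the range of MONO as deposited, and after division WT males were below it and CD163KO males above it.

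In the fit with sex and genotype as terms, Camp differed by -1.14 ± 0.49 (edgeR unadjusted p = 0.05), Retnlg by -1.16 ± 0.50 (edgeR unadjusted p = 0.0555) and S100a8 by -1.15 ± 1.14. The other members lay between -0.50 (Mmp8) and -1.84 (Elane). Every member had an adjusted p of 1.0, and among all 10430 genes tested 0% were called (119 genes at an unadjusted p under 0.05). DESeq2 called 4 genes, none of them a member, and limma on log2(FPKM + 1) called 1, S100a8 (-1.55, adjusted p = 0.00134). The members' median was -1.03 and that of all genes -0.11. The members' median was -0.63 without female WT MONO, -0.68 without female CD163KO PFF and -0.57 with all 8 libraries. Without the female WT MONO library Ltf and Mmp8 had positive fitted values (0.59 and 0.23), and likewise without female WT PFF (0.00 and 0.47).

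Within single pairs of libraries, where no replicate check exists, WT females moved together. FPKM were divided by the TMM factor of the library, and a difference of 1 on the log2(FPKM + 1) scale was taken as the threshold. All 10 members were lower with PFF in WT females, where 9.37% of 9499 genes were lower by this much. Their differences ran from -3.26 (Mpo) to -1.02 (S100a9), with a median of -1.83. In CD163KO females 6 members were lower against 8.91% of all genes, with S100a8 at -2.24, S100a9 at -1.63 and Camp at -1.62. Mpo was higher there by 1.89 (10.7% of all genes were higher by at least 1), and Elane was at 0.65. So the mature genes were lower with PFF in females of both genotypes, while the early genes were lower in WT females and not in CD163KO females.

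In WT males 5 members were lower, in a comparison where 41.6% of all genes were. Elane was at -4.21, Mpo at -2.17, S100a8 at -1.50 and Mmp8, the 1 member higher (23.8% of all genes), at 1.34. The PFF library of this pair is one of those that stood apart. In CD163KO males, whose MONO library the study excluded, 1 member, Mpo (-1.55), was lower (19.4% of all genes) and 6 were higher (28.6% of all genes), S100a8 by 2.87. Elane was at 0.32 there. These counts turned with the scaling. With FPKM as deposited, 4 were lower (68% of all genes) and 0 higher (10.6%) in CD163KO males, Mpo at -3.47 and Elane at -1.61 among them. In WT males 2 were then lower (38.1%) and 2 higher (34%), in CD163KO females 3 lower (3.93%) and 2 higher (17.9%), and in WT females 10 stayed lower (40.4%).

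**Figure D4:**
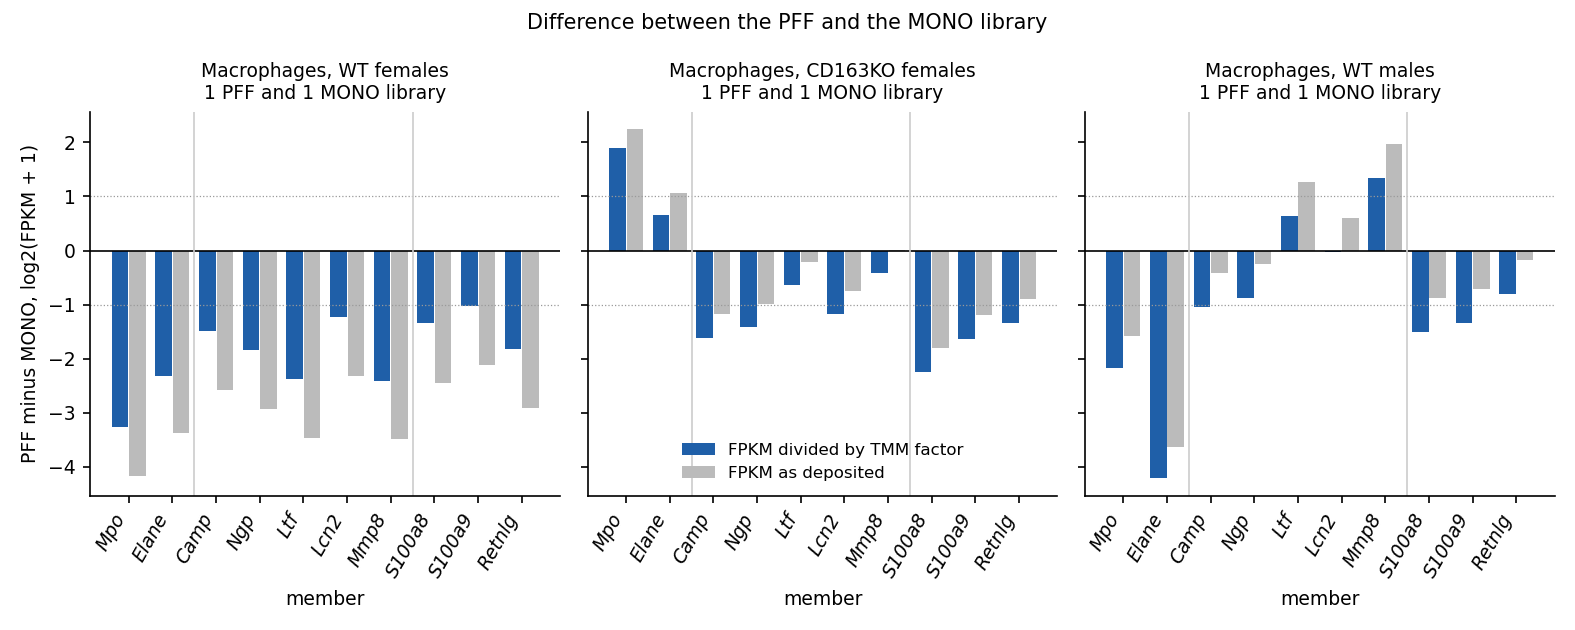
Difference of log2(FPKM + 1) between the PFF and the MONO library of macrophages for each member, in WT females, CD163KO females and WT males. Blue bars use FPKM divided by the TMM factor, grey bars FPKM as deposited, and dotted lines mark a difference of 1. All bars point down in WT females, and the bars of Mpo and Elane point up in CD163KO females.

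Markers of other cells in the gate varied alongside. The summed FPKM of the 4 mast cell and basophil genes (Mcpt8, Prss34, Cpa3 and Ms4a2) was between 739.4 and 1215 in the 3 MONO libraries and between 117.5 and 576.3 in the 4 PFF libraries. The 7 monocyte genes summed to between 680.0 and 1702 with MONO and between 302.9 and 1638 with PFF, and the 8 border-associated macrophage genes to between 2314 and 3973 with MONO and between 1384 and 3580 with PFF. After division by the TMM factor the mast cell and basophil sum still separated (803.1 to 1120 with MONO, 205.4 to 735.9 with PFF), and the monocyte and border-associated sums overlapped. The sum of the 7 T and NK cell genes separated on this scale only (114.4 to 150.5 with MONO, 79.0 to 106.6 with PFF). As deposited it was at 75.5 to 193.9 and 40.4 to 211.7. In the fit 3 of the 5 T and NK genes tested had lower values with PFF (median -0.04). In the fit 4 of 4 mast cell and basophil genes and 6 of 7 monocyte genes had lower values with PFF, while 6 of 8 border-associated genes had higher ones (median 0.35), and none was called. The 5 tested B lineage genes (median -1.97) and the 5 genes of proliferating cells (median -1.03) also all had lower values, none of them called. The 8 microglia markers summed to at most 1175, against at least 14076 in microglia. In FPKM as deposited, the PFF library of WT females held the least of the mast cell and basophil, monocyte and border-associated lists among the PFF libraries. It also held the lowest level of each of the 10 members. After division it did not, since WT males held less of the mast cell and basophil and border-associated lists and CD163KO females less of the monocyte list. The part of these cells in the differences of the members was not tested.

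Whether the difference between PFF and MONO was the same in both genotypes was tested with an interaction term. Mpo was at 78.4 and 129.8 FPKM in the MONO macrophages of WT females and WT males, and at 3.40 and 43.0 with PFF. In CD163KO it was at 5.00 with MONO in females, and at 27.5 and 22.2 with PFF in females and males. Mpo was thus lower with PFF in both sexes of WT and higher in CD163KO females. Elane was at 138.3 and 335.3 with MONO in WT females and WT males and at 12.5 and 26.0 with PFF. In CD163KO it was at 23.1 with MONO in females and at 49.5 and 63.5 with PFF. Its WT libraries separated by treatment without overlap, and the 3 CD163KO libraries tested lay between 23.1 and 63.5. The male CD163KO MONO library left out of the test was above these PFF levels for both genes, with Mpo at 255.8 and Elane at 195.7 FPKM, so as deposited both were lower with PFF in CD163KO males, as in WT.

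The interaction was 4.57 ± 0.94 for Mpo (edgeR unadjusted p = 0.00216) and 4.22 ± 1.18 for Elane (edgeR unadjusted p = 0.00964), on the log2 scale. Neither passed correction (edgeR adjusted p = 1.0), and of all genes 0% were called (38 at an unadjusted p under 0.05). The other members had terms between 0.31 (Lcn2 and Camp) and 2.33 (Ltf), each within 2 SE of 0. Their median over all 10 members (0.71) was close to that of all genes (0.68). It was -0.62 without female WT MONO, with 8 of 10 members negative, and -0.08 without male CD163KO PFF, with 6 negative. The 4 other early granule and precursor genes all had positive terms, with Ctsg (2.86 ± 1.07, edgeR unadjusted p = 0.0338) and Ms4a3 (edgeR unadjusted p = 0.039) below an unadjusted p of 0.05 and none called. Markers of other cells had large positive terms as well, with a median of 4.09 for B lineage (5 of 5 positive), 3.97 for proliferating cells (3 of 5) and 2.17 for mast cells and basophils (4 of 4), none at an unadjusted p under 0.05. Their part in the term of Mpo and Elane was not tested. The fit left 2 residual degrees of freedom to estimate spread, and leaving out a library left fewer. Calls made with a library left out therefore rest on very little spread. The term rests on 1 CD163KO MONO library, and with the excluded library added it was 2.77 for Mpo and 3.58 for Elane (edgeR adjusted p = 1.0). Without female WT PFF both genes were called, together with 3374 genes in all, and without male WT PFF Mpo was called (edgeR adjusted p = 0.0228). The CD163KO female PFF library held the bone transcripts Bglap (222.3 FPKM), Bglap2 (180.0 FPKM) and Ibsp (5.46 FPKM), while no other macrophage library exceeded 2.96 FPKM of any of these. Without this library the term was 4.12 for Mpo and 4.95 for Elane (edgeR adjusted p = 0.937 for both), and the part of marrow-derived RNA was not tested.

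CD163KO against WT gave no call for a member in macrophages. The genotype term called 0.00959% of the genes tested, that is 1 gene, Cd163 itself. S100a8 had the largest fitted value of the members (1.18 ± 1.08) and Ltf the smallest (-0.06 ± 1.00), and 8 of 10 were positive. Under library totals 5 of 10 were positive, and without the male CD163KO PFF library 3 of 10, with the members' median at -0.10 against 0.55. Among females given MONO 0 members were higher in CD163KO by at least 1 (7.19% of all genes) and 4 were lower (12.7% of all genes), with Mpo at -3.19 and Ltf at -2.30. With FPKM as deposited 6 were lower there (24.8% of all genes). Among females given PFF 2 were higher, Mpo (1.96) and Elane (1.04), where 8.84% of all genes were. With FPKM as deposited 4 were higher there (32.2% of all genes), and the median of the members turned from -0.24 to 0.68. In males given PFF 7 were higher (42% of all genes), with Ngp at 3.05, Elane at 2.93 and S100a8 at 2.81. With FPKM as deposited, 3 were higher (26.1%) and 2 lower (56.2%). In males given MONO, with the excluded library, 2 were higher (20.9% of all genes) and 5 lower (29.4%), or 2 (40.4%) and 0 (21.3%) with FPKM as deposited.

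In microglia 8 members were tested for treatment and genotype, since Mpo and Elane did not reach the minimum CPM of 1 in 3 libraries. For PFF against MONO 0% of 11373 genes and 0 members were called (723 genes at an unadjusted p under 0.05). Camp differed by 0.64 ± 0.36, S100a8 by 0.34 ± 0.46 and Mmp8 by -2.27 ± 1.15. For CD163KO against WT 0% were called (128 at an unadjusted p under 0.05), with S100a8 at -0.26 ± 0.47 and Mmp8 at -2.81 ± 1.24. The interaction called 0% as well (477 at an unadjusted p under 0.05). DESeq2 called 30, 2 and 29 genes in these comparisons, none of them a member. The signs of these terms turn with the scaling. With TMM 6 of 8 members were positive for PFF, and with library totals 1 of 8. For genotype 2 of 8 were positive with TMM and 7 of 8 with library totals. Without the male WT PFF library 3 of 8 were positive for PFF and 6 of 8 for genotype. Leaving out the library with Y-linked counts gave 0 called members for treatment and for genotype.

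Sex was not a comparison fixed here, and its values are a description. S100a8 in microglia was at 614.9, 677.5, 604.9 and 517.9 FPKM in females (CD163KO MONO, CD163KO PFF, WT MONO, WT PFF) and at 541.4, 1374, 1669 and 869.4 in males in the same order. The males were above all females except in CD163KO MONO. After division by the TMM factor all 4 male libraries (984.6 to 3090) were above the 4 libraries labelled female (384.1 to 504.7). The ends of the male range were CD163KO MONO and WT PFF, whose TMM factors (0.55 and 0.281) stood apart. The separation of CD163KO MONO from the females thus depends on this division. The library labelled female with Y-linked counts was at 452.8, inside the female range, so that range is the same without it. In macrophages the sexes overlapped on both scales, with 14560 to 79279 FPKM in females and 45219 to 95360 in males.

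Across the 8 macrophage libraries the members formed groups by level, described by Pearson's r of log2(FPKM + 1). S100a8 and S100a9 had an r of 0.990, Camp and Retnlg 0.965, and Mpo and Elane 0.887. Mpo and S100a8 had an r of 0.414, the lowest of the pairs. The points share library depth and composition, and n is 8. Of 5253 other genes with a mean of at least 5 FPKM, those most like the mean of the late granule members were Anxa1 (annexin A1, r = 0.979), Ly6g (a surface antigen of neutrophils, 0.978) and Chil3 (chitinase-like 3, 0.964), with S100a11, Mgst2, Oga, Hp, Myl12b, Rac2 and Tnni2 between 0.936 and 0.956. Those most like the mean of Mpo and Elane were Ccdc88b (0.980), Fam89b (0.970) and Txndc17 (0.965), followed by Tuba4a, Dlgap4, Twf2, Rps25, Gemin7, Cebpd and Atp6v0c between 0.948 and 0.960. The lists share no gene.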

How the data were processed

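RNA of macrophages and microglia sorted from mouse brain was sequenced by SMART-seq2. Per the methods, reads from rRNA and of low quality were removed, reads were mapped with Bowtie2 and expression was estimated with RSEM. The submitters' processing notes name mm10, Bowtie2, RSEM and DESeq2, and versions are not given in the sources used here. Per transcript, the tables hold expected counts that the authors obtained from RSEM and deposited unscaled. Beside these stand FPKM, which the authors deposited as RSEM gave them. Whether a table pools the triplicates that were sequenced is not stated. The batch assignment of the mice is not given in the labels.

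RefSeq transcripts (27632 of 27787 with a symbol) were summed to 18580 genes, with unlisted genes at 0. In no library did unnamed transcripts pass 0.128% of the counts. S100a9 was summed over 2 transcripts. Counts were rounded and tested with edgeR 4.0.16 (TMM, CPM of at least 1 in at least 3 libraries, quasi-likelihood F test, Benjamini-Hochberg over all genes tested), and the SE was derived from the F value. The population fit had the combination of sex, genotype and treatment as a block (14 libraries). The others had sex, genotype and treatment, with their interaction where stated (7 libraries). These fits left out male CD163KO MONO, which entered descriptions over 8 libraries, an alternative and differences between single libraries. Differences between single libraries used log2(FPKM + 1), with genes at FPKM of at least 1 in either library. A difference on this scale understates the change of low genes. The fits were tested on simulated data.

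Alternatives were DESeq2 1.42.0, limma 3.58.1 on log2(FPKM + 1), library totals, no filter, all 8 libraries per population, other pseudocounts, FPKM as deposited and leaving out each library. The members and the other gene lists were chosen with earlier results of these data known, so a count over a list is not independent evidence. Levels per 100 FPKM of S100a8, the motifs searched and the sequences shown were chosen after the values were seen. All members are named. Of the other lists, called genes are named, up to 4 by adjusted p. The 10 genes most like the late members and the 10 most like Mpo and Elane were taken by Pearson's r. Promoters were taken from RefSeq on GRCm38.p6, and all 10 members matched.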

Additional observations from a re-analysis of the deposited data

Results flagged for a closer look

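In macrophages the early granule genes differed in opposite directions between some pairs of single libraries, in FPKM divided by the TMM factor. Between PFF and MONO, Mpo differed by -3.26 in WT females and by -2.17 in WT males, and by 1.89 in CD163KO females. The pair of CD163KO males, whose MONO library was left out of the tests, was at -1.55, so the opposite direction of Mpo rests on CD163KO females alone. Elane differed between CD163KO and WT by -1.93 in females given MONO, by 1.04 in females given PFF and by 2.93 in males given PFF (1.25 with FPKM as deposited). Males given MONO, with the library left out of the tests, were at -1.61. The interaction term that tests these differences failed correction for both genes (edgeR adjusted p = 1.0).

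The macrophages of male CD163KO MONO, left out of the tests, held more of some granule genes than both WT MONO libraries. Mpo was at 255.8 FPKM against 78.4 and 129.8, Ltf at 1799.9 against 1257 and 352.4, Lcn2 at 395.9 against 378.1 and 335.3, and Mmp8 at 740.7 against 293.4 and 171.1. After division by the TMM factor of that library, which was 2.31, Lcn2 was at 171.5 and no longer above them, while Mpo (110.8), Ltf (779.7) and Mmp8 (320.9) were compared with 77.2 and 100.7, with 1238 and 273.4, and with 289.0 and 132.7. Mpo and Mmp8 thus stayed above both on this scale and Ltf did not.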

How the results depend on the processing

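Each library or pair of libraries was left out in turn, and with 1 library per combination the lone sample of an arm was assumed to vary like the others. Macrophages against microglia kept 10 of 10 members called under every alternative, the fit without the block included, although Mpo and Elane passed the filter through macrophages only. The treatment by genotype term called between 0 and 2 members in macrophages when a library was left out (2 without female WT PFF, 1 without male WT PFF). PFF against MONO in macrophages called 1 member with limma. With a library left out, Ltf in that comparison lay between -1.76 and 0.59 and Mmp8 between -1.42 and 0.47. The cause was not tested. In no comparison of treatment or genotype in microglia was a member called under any alternative.

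Counts over all genes moved more. Macrophages against microglia called 2588 genes, against 6227 with library totals, 4730 with DESeq2, 6390 with limma and 4912 without the male WT PFF pair. Library totals moved the median of all genes from -0.31 to -1.95, and DESeq2 and limma split the calls into 2217 higher and 2513 lower, and 687 higher and 5703 lower. PFF against MONO in macrophages called 4 genes with DESeq2 and 1 with limma, against 0. In microglia it called 2 with library totals, 30 with DESeq2, 11 without a filter and 1 without male WT PFF, against 0. CD163KO against WT called 3 genes with limma in macrophages, against 1 or 0 otherwise, and 2 with DESeq2 and 19 without a filter in microglia, against 0. The interaction in macrophages called 5 with library totals, 8 with DESeq2, 3 with limma and up to 3374 without female WT PFF, against 0, and in microglia 1 with library totals and with limma, 29 with DESeq2, 105 without a filter and up to 130 without female WT PFF, against 0. Without the female CD163KO MONO library the interaction could not be fitted.

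Within a population the labels give no replicate numbers to use as a block, and macrophages and microglia were compared within the 7 combinations. The lowest count of a member in macrophages was 156, while in microglia Mpo rested on 0 to 147 counts and Elane on 0 to 25. With 1 library for each combination, spread between mice of a group could not be measured.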
